A study of Mus musculus with 2 samples.

Results

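Brush border hydrolases are the enzymes that small-intestinal enterocytes hold on their microvilli to finish the digestion of sugars, peptides and phosphate esters. They were described here in crypts isolated from the small intestine of mice with and without epithelial Lpcat3, a lysophospholipid acyltransferase. The set comprised 9 genes taken by name: the disaccharidases Lct, Sis, Mgam and Treh, the phosphatase Alpi, and the peptidases Anpep, Dpp4, Ace and Enpep. Of these 9, 8 were named by 12 of the 45101 probe sets on the array. Sis, the sucrase-isomaltase gene, was not named by any annotated probe set and was not analysed here, so 3 of the 4 disaccharidases and all 4 peptidases have values.

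The control mice were Lpcat3 F/F, with both Lpcat3 alleles floxed, and the knockout mice were Lpcat3F/F, Villin-CreERT2, which adds a Cre recombinase that tamoxifen activates in the intestinal epithelium. Mice of both groups were 8 to 10 weeks old, received tamoxifen by intraperitoneal injection at 1 mg per mouse per day for 5 days, and gave crypts 2 weeks later. RNA from 5 mice was combined within a group and hybridised to 1 Affymetrix array per group. There were therefore no replicates, and the genotypes could not be compared by a test. Because the controls also received tamoxifen but carried no Cre, the effects of genotype, Cre, pool and array cannot be told apart.

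Hydrolases of the brush border are made in the crypt-to-villus transition and are known to be most abundant on the villus. Lactase is high before weaning and declines afterwards, while sucrase-isomaltase, maltase-glucoamylase and trehalase belong to the adult diet. Their genes are classic targets of the transcription factors HNF4, CDX2 and the GATA family. The peptidases are also found outside the gut: Dpp4 on T lymphocytes, Ace on endothelium, and Anpep on myeloid cells.

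A signal is the MAS5 value of a probe set, in arbitrary linear units, scaled to the same target on both arrays. Each difference is given as a log2 ratio, knockout over control, so negative values are lower in the knockout pool. Signals below a floor of 92.9 were raised to it, and a gene below it on both arrays was not measured. All 12 hydrolase probe sets were above the floor on both arrays, and the dimmest, of Ace, was 2.96 times the floor on its lower array. The technical SD of a log2 ratio, from pairs of probe sets of the same gene on the same 2 arrays, was 0.28 (4582 genes). It measures disagreement between probe sets. Variation among mice or pools, and labelling or array effects that probe sets share, are not part of it. Differences were called at 1.5-fold, a log2 ratio of 0.58. Among 11496 measured genes, 4.76% had a knockout signal higher by 1.5-fold or more and 8.74% one lower by that much. Among 24011 measured probe sets the shares were 5.3% and 8.22%.

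The labels were checked first. Lpcat3 read 4691 in control and 928 in knockout (log2 ratio -2.34). All 8 crypt base and cycling cell markers, among them Lgr5, Olfm4, Lyz1 and Mki67, exceeded the floor on each array. So were all 11 villus enterocyte markers that the array names, among them Fabp1, Apoa1 and Apoa4, so the preparation also held enterocyte RNA. In pooled tissue RNA, fewer cells of a type and less RNA per cell cannot be told apart. For RNA integrity, the 3' over 5' signal of Actb was 1.98 in control against 1.64 in knockout, and that of Gapdh 0.785 against 0.742. In log2 ratio, Gapdh was at 0.36, 0.55 and 0.44 (3', middle and 5' probe set) and Actb at 0.11, 0.37 and 0.39. In the same order, 18S RNA was at 0.89, 0.56 and 0.63. The dimmer 3' probe sets of pyruvate carboxylase and the transferrin receptor were at 0.13 and -0.12. The spike-ins BioB, BioC, BioD and Cre lay between -0.086 and 0.068. The bearing of these ratios on those of the hydrolases was not tested.

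Of the 8 hydrolase genes, 1 was at least 1.5-fold lower (Lct) and 1 at least 1.5-fold higher (Alpi) in the knockout pool. A count of 1 in 8 in each direction does not stand apart from the shares over all genes, 8.74% and 4.76%. By probe set, 1 of 12 was higher and 1 lower. By sign the genes divided evenly, 4 higher and 4 lower, and its median log2 ratio was 0.0090 against -0.042 over all measured genes. The members ranged from -1.36 to 0.62.

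**Figure D1:**
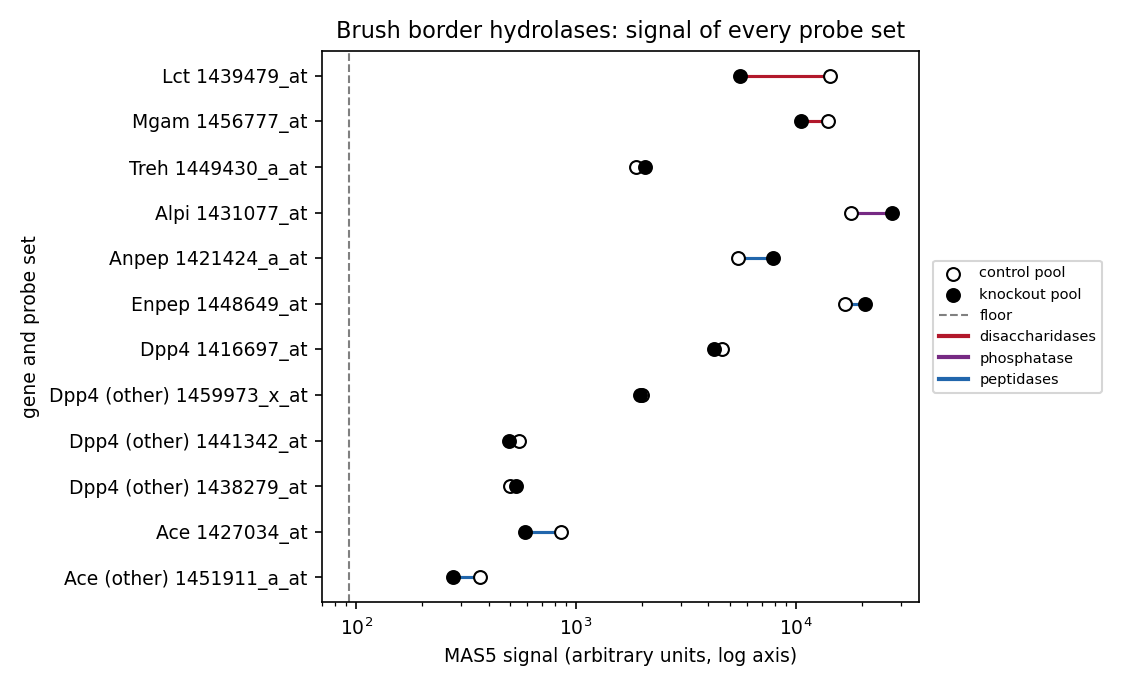
MAS5 signal (log axis) of each of the 12 hydrolase probe sets in the control pool (open circle) and the knockout pool (filled circle), with a line joining both pools coloured by enzyme class; "(other)" marks a gene's dimmer probe sets and the dashed line is the floor of 92.9. The widest gap belongs to Lct, 14250 against 5543, and all points lie to the right of the floor.

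Lactase showed the largest difference of the set. Lct encodes lactase-phlorizin hydrolase, which splits milk lactose into glucose and galactose. Its 1 probe set (1439479_at) read 14250 in control and 5543 in knockout. The knockout signal was thus 2.57-fold lower, a log2 ratio of -1.36 or 4.88 technical SDs. Only 90 of the 11496 measured genes had a lower ratio, and among the 890 genes whose mean signal lay within 2-fold of that of Lct, 2 did. No second probe set names Lct, so this value has no check within the array.

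Maltase-glucoamylase, encoded by Mgam, releases glucose from the ends of starch fragments. Its probe set (1456777_at) read 13987 in control and 10576 in knockout, 1.32-fold lower (log2 ratio -0.40, 1.44 technical SDs). That is short of 1.5-fold. Among 643 genes of like signal, 31 had a lower ratio. Trehalase, the product of Treh, splits the fungal and insect sugar trehalose and is held to the membrane by a lipid anchor. It read 1878 in control and 2069 in knockout, a log2 ratio of 0.14, which is within 1 technical SD. The 3 measured disaccharidases thus ranged from -1.36 to 0.14, and Lct lay 0.96 below Mgam, the next of them.

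Alpi was the member that stood highest. It encodes intestinal alkaline phosphatase, a lipid-anchored enzyme that removes phosphate from dietary and bacterial molecules, lipopolysaccharide among them. Its probe set (1431077_at) read 17823 in control and 27416 in knockout, 1.54-fold higher (log2 ratio 0.62, 2.23 technical SDs). Of 346 genes of like signal, 8 had a higher ratio. The call is marginal, since the ratio was 0.57, just under 1.5-fold, after a lowess correction for signal. Alpi and Lct, both bright in the control pool, differed in ratio by 1.98.

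Promoter sequences are shown for the 3 measured disaccharidases and for Alpi, to let the highest and lowest members be compared at their start sites. They come from RefSeq (GRCm38.p6), run from 250 bases before to 50 bases after the annotated start, and are written 5' to 3' on the strand of the gene. Capitals mark matches, on either strand, to 4 letter patterns. The core of the CDX motif was searched as CATAAA. For the GATA family the letters were AGATAA, for HNF4 they were CAAAGTCCA, and the TATA box was written TATAAA. No matches overlapped in these 4 windows.
Lct, chr1:128328269-128328568, minus strand: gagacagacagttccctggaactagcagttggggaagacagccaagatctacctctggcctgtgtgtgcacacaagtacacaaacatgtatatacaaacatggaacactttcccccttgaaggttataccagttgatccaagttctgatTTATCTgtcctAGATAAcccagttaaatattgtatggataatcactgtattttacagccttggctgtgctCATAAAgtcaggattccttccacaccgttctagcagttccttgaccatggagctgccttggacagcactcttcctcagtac
Mgam, chr6:40628581-40628880, plus strand: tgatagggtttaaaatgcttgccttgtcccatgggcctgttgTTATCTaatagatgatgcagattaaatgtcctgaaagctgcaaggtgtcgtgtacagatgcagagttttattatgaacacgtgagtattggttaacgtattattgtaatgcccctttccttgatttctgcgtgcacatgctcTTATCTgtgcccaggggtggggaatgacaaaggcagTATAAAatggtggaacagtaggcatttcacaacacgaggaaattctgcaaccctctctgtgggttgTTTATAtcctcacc
Treh, chr9:44672983-44673282, plus strand: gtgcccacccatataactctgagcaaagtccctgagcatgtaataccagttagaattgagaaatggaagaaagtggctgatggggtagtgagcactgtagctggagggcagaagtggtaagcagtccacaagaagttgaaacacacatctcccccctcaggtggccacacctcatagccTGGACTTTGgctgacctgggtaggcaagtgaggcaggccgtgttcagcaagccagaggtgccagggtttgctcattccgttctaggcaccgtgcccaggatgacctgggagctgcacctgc
Alpi, chr1:87101557-87101856, minus strand: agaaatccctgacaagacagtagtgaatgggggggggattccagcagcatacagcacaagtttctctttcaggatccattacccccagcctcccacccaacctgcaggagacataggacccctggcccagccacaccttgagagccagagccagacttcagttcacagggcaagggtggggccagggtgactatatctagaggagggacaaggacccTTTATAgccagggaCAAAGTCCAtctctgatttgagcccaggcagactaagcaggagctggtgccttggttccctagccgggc

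Lct and Mgam each had 2 GATA matches, at 101 and 90 bases before the start in Lct and at 208 and 66 bases before it in Mgam. Over all 32851 promoter windows of the same length, 11.2% held the GATA letters at least 1 time. Of the 10 windows of the 9 hydrolase genes (Ace has 2 starts), 3 did, the third being that of Dpp4. The CDX letters stood 31 bases before the start of Lct and were also found in the Sis window (11.9% of all windows). The HNF4 letters were found in Alpi, 19 bases before the start, and in Treh, 71 bases before it, and are rare, in 0.475% of all windows. The TATA letters, counted on either strand and at any position, were in 6 of the 10 windows against 13.6% of all. Mgam, Ace and Alpi had them 30, 31 and 33 bases before the start, and Mgam also past the start. In Enpep they stood 52 bases and 1 base before it, in Sis 138 and 134, and in Dpp4 227. The window of Anpep, at 72.3% G and C, held none of the 4 patterns. These matches describe the letters only and say nothing of factor binding. The patterns were chosen with the ratios and promoter sequences known, and a link of matches to ratios was not tested.

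The 4 peptidases did not move one way. The aminopeptidase genes Anpep and Enpep were higher in the knockout pool, whereas Dpp4 and Ace were lower, and none of the 4 reached 1.5-fold.

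Anpep encodes aminopeptidase N (CD13), which takes single residues off the amino end of peptides. Its probe set (1421424_a_at) read 5429 in control and 7839 in knockout, 1.44-fold higher (log2 ratio 0.53, 1.90 technical SDs). Of 1236 genes of like signal, 61 had a higher ratio. Enpep encodes aminopeptidase A, which prefers acidic residues and also trims angiotensin II. It read 16677 in control and 20549 in knockout, 1.23-fold higher (log2 ratio 0.30), close to 1 technical SD. Both are zinc enzymes of the same M1 family.

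Dpp4 encodes dipeptidyl peptidase 4 (CD26), which removes dipeptides that end in proline or alanine and inactivates the incretin hormones. It was read by 4 probe sets. The brightest (1416697_at) had 4614 in control and 4242 in knockout, a log2 ratio of -0.12. The others gave -0.037 (1459973_x_at, 2004 against 1954), -0.15 (1441342_at, 549 against 496) and 0.088 (1438279_at, 502 against 534). All 4 lay within 1 technical SD of 0, and no other member was read by as many probe sets. T and natural killer lymphocyte genes moved widely in the same pools: of 12 markers, 11 were measured, all lower, 10 by at least 1.5-fold, with a median log2 ratio of -2.09. These 10 were Cd3d, Cd3e, Cd3g, Cd7, Cd8a, Gzma, Gzmb, Itgae, Klrd1 and Ptprc, of which Klrd1 was at -3.21 and Ptprc at -1.15. The summed signal of the 11 was 40094 in control and 9125 in knockout. Cd2 was below the floor on both arrays. The part of lymphocyte RNA in the Dpp4 signal was not tested.

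Ace encodes angiotensin-converting enzyme, which releases dipeptides from the carboxyl end of peptides. Its brighter probe set (1427034_at) read 858 in control and 589 in knockout, 1.46-fold lower (log2 ratio -0.54, 1.95 technical SDs). The dimmer one (1451911_a_at) read 367 and 275, a log2 ratio of -0.42, so both pointed the same way. Among 4241 genes of like signal, 375 had a lower ratio than Ace. Of 8 endothelial and pericyte markers, 6 (Pecam1, Cdh5, Tek, Vwf, Rgs5 and Pdgfrb) were below the floor on both arrays. The 2 others, Kdr and Cspg4, crossed it on 1 array each with signals of at most 124. The part of vascular RNA in the Ace signal was not tested.

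**Figure D2:**
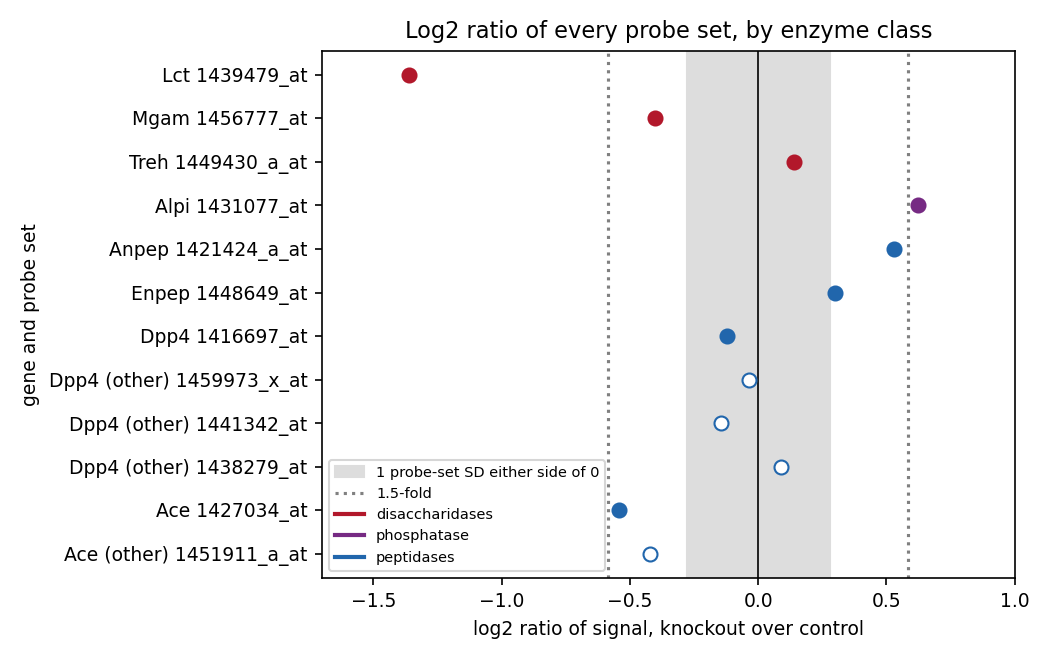
Log2 ratio of signal, knockout over control, of the 12 hydrolase probe sets, coloured by enzyme class; filled points are each gene's brightest probe set, open points its others, the grey band is 1 technical SD (0.28) either side of 0 and dotted lines mark 1.5-fold. Lct (-1.36) lies far to the left, Alpi (0.62) just past the right line, and the 4 Dpp4 points lie in the band.

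Set against each other, the disaccharidases had a median log2 ratio of -0.40 (3 genes) and the peptidases 0.090 (4 genes), a difference of -0.49. The classes overlapped: Treh (0.14) lay above Dpp4 and Ace, and Ace (-0.54) lay below Mgam. Without Lct the difference was -0.22. Without probe sets whose identifiers end in _s_at, _x_at or _a_at, which drops Treh and Anpep, the disaccharidase median was -0.88, the peptidase median turned to -0.12 and the difference was -0.76. Within the peptidases, the pair of aminopeptidases exceeded Dpp4 and Ace by 0.75 in median. With 1 array a group, neither difference could be tested.

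**Figure D3:**
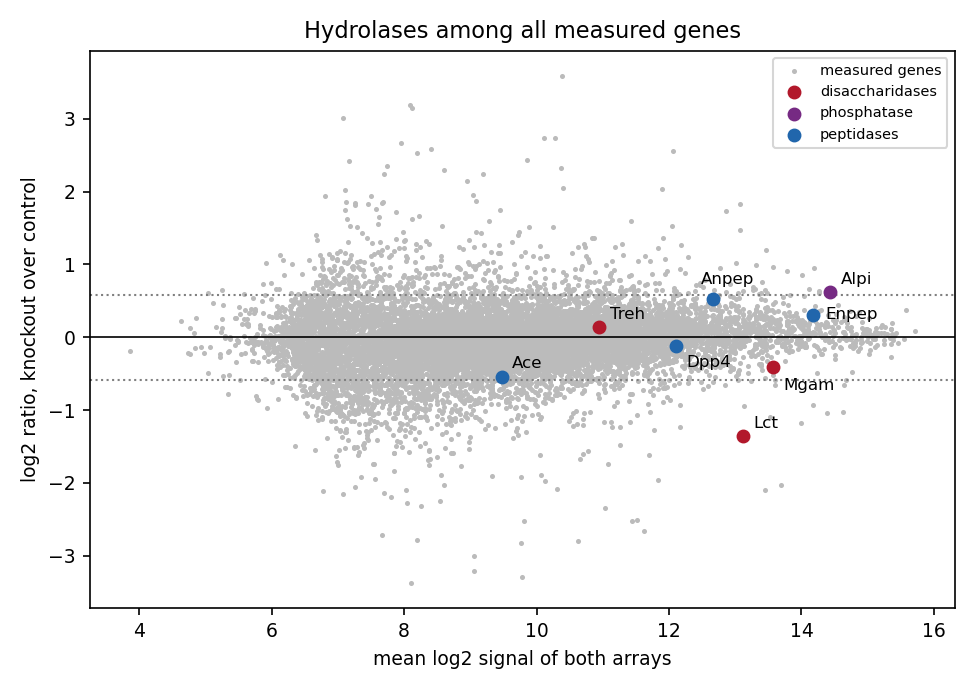
Log2 ratio, knockout over control, against mean log2 signal of both arrays for the 11496 measured genes (grey) and the 8 measured hydrolases (coloured by class); dotted lines mark 1.5-fold. Most hydrolases lie among the brighter genes, and Lct lies near the lower edge of the genes of its brightness.

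Since most members were bright, they were also read against genes of high signal. Of 1313 genes reaching 4000 on either array, 4.87% were higher and 4.19% lower by 1.5-fold or more. The hydrolases in that range were Lct, Mgam, Alpi, Anpep, Dpp4 and Enpep, with Lct lower and Alpi higher by that measure. Treh and Ace, both dimmer, belong with the 7322 genes at or above 451, the 75th percentile, of which 4.32% were higher and 6.19% lower.

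Among other hydrolases of the same membrane, more genes were lower than higher. Of 13 measured, 6 were at least 1.5-fold lower against 8.74% of all genes, 1 was at least 1.5-fold higher, and the median log2 ratio was -0.57. With a pseudocount in place of the floor, which gives every gene a value, the median was -0.30 over all 15 genes that the array names. The count lower was 4 under a 70th percentile floor and 2 at 2-fold. The subunits of meprin, a metalloprotease of the brush border, went apart. Mep1a read 936 in control and 407 in knockout (log2 ratio -1.20, and -0.43 by its other probe set), whereas Mep1b read 10494 and 14611 (0.48). Nt5e, the ecto-5'-nucleotidase, read 616 and 281 (-1.13). Naaladl1, a peptidase related to glutamate carboxypeptidase, read 2569 and 1490 (-0.79).

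Cpm, carboxypeptidase M, read 225 and 114 (-0.98). The neutral ceramidase gene Asah2 had ratios of -0.61 (brightest probe set, 4220 against 2756), -0.10 and -0.16. Tmprss15, enteropeptidase, which activates trypsinogen, was at least 1.59-fold lower, since its knockout signal of 80.6 lay under the floor. Dpep1, a dipeptidase of the membrane, was the 1 higher gene, at 0.70 (2197 against 3559) and 1.03 by its other probe set.

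The remaining 6 measured genes of that list lay within 1.5-fold by brightest probe set. They were Xpnpep2 (-0.57), Mme (-0.31), the second intestinal alkaline phosphatase gene Akp3 (-0.20), Enpp3 (-0.16), Plb1 (0.30) and Mep1b. The other probe set of Mme was at -0.72 (422 against 256), past 1.5-fold. Enpp3 was above 0 by its other probe sets over the floor, at 0.26 and 0.20. Akp3, at 249 in control and 216 in knockout, was thus on the other side of 0 from Alpi. Folh1 and Alpl were below the floor on both arrays, and Ggt1 and Enpp7 had no probe set annotated to them alone.

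The transporters that take up the products of these enzymes went both ways, 5 above 0 and 5 below it. Of 10 measured, 9 lay within 1.5-fold by brightest probe set and 1 was lower, with a median log2 ratio of -0.0048. Slc5a1, which takes up glucose and galactose, the products of lactase, was at -0.14 (12437 against 11283). The glucose transporter Slc2a2 was at -0.44, the fructose transporter Slc2a5 at -0.18 and the peptide transporter Slc15a1 at 0.13. Among amino acid carriers, Slc6a19, a carrier of neutral amino acids, was at 0.47, Slc3a1 at 0.42 and Slc7a9 at 0.40, whereas the proline carrier gene Slc6a20a was at -0.88 (5225 against 2831). The other probe set of Slc6a19 was at 0.66 (1080 against 1702), past 1.5-fold. Slc1a1 (-0.15, and -0.51 and -0.0083 by its others) and Slc36a1 (0.17) completed the list.

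Of 14 measured transcription factors known for control of hydrolase genes, 12 lay within 1.5-fold by brightest probe set and the median was -0.030. Cdx2 was at -0.16 (3475 against 3112), Gata4 at -0.16, Gata5 at -0.014, Gata6 at -0.046, Hnf4a at 0.11 (16068 against 17289) and Hnf4g at 0.24. The other probe sets of Hnf4a were at -0.052, -0.049 and at least 0.71, the last with a control signal of 55.7, under the floor. Cdx1 was lowest, at -0.43. Klf4 was at 0.25, Isx at 0.20, Klf5 at -0.11, Elf3 at -0.15 and Foxa1 at -0.18. The 2 factors past 1.5-fold were both higher, but 1 of them passed under a 70th percentile floor and 0 under the pseudocount. Prdm1, which holds back adult enterocyte genes before weaning, was at 0.62 with dim signals of 139 and 214. Pdx1, a duodenal factor and a repressor of the lactase promoter in cultured cells, read 526 and 789 (0.59), at the very edge of 1.5-fold.

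Genes that build the microvillus, on which the hydrolases sit, had a median of 0.21 over 13 genes, 12 of them within 1.5-fold by brightest probe set. Vil1, the actin bundler villin, was at 0.24 (14737 against 17444), Ezr at 0.45, Slc9a3r1 at 0.38 and Myo1a at 0.12. Pdzk1, a scaffold of the microvillus, was lower at -0.82 (1809 against 1024). Pls1 was at -0.34, Ush1c at -0.098 and Cdhr2 at -0.072, and Espn (0.46), Eps8 (0.26), Myo7b (0.22), Cdhr5 (0.21) and Anks4b (0.076) were above 0. By brightest probe set, Lct, at -1.36, lay below every one of these 13 genes, while Alpi, at 0.62, lay above every one. The other probe set of Ezr, with dim signals of 107 in control and 241 in knockout, was at 1.17, above Alpi. With all probe sets of a gene used, 1 of the 13 was at least 1.5-fold higher.

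**Figure D4:**
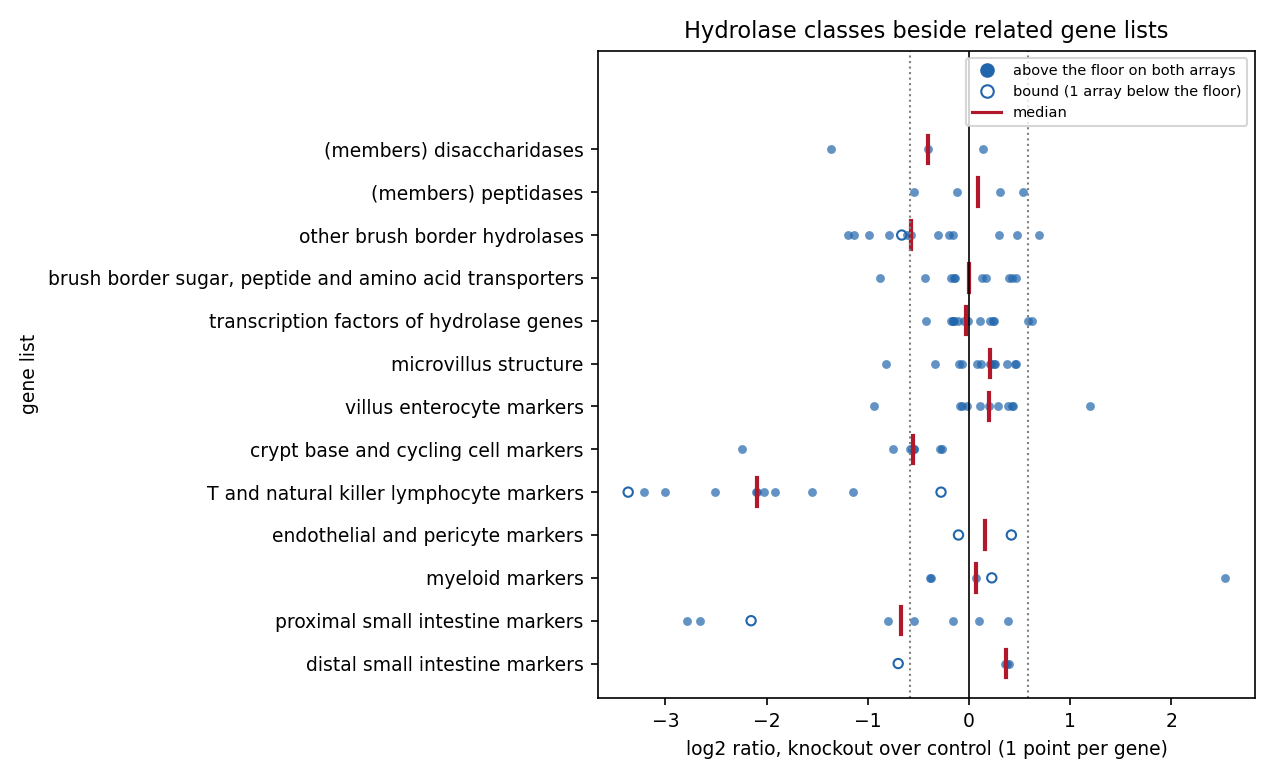
Log2 ratio, knockout over control, of each measured gene (1 point per gene, brightest probe set) in the disaccharidases, the peptidases and 11 related lists, with the median of each as a red bar; open points are bounds and dotted lines mark 1.5-fold. The median of the other brush border hydrolases lies at -0.57, that of the transporters at -0.0048 and that of the lymphocyte markers at -2.09.

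Markers of the cells that could contribute hydrolase RNA were read in the same pools. Of 13 villus enterocyte markers 11 were measured, with a median log2 ratio of 0.20 and a summed signal of 205726 in control and 236250 in knockout. Rbp2 was at 1.20 and Apoc3 at -0.94, and the other 9 lay within 1.5-fold by brightest probe set. Fabp1, the brightest of them, went from 42836 to 55763 (0.38), but its other probe set was at 0.73, past 1.5-fold. By brightest probe set, Apoa4, Apob and Khk were just below 0. The 8 crypt base and cycling markers were all lower, with a median of -0.55 and summed signals of 96710 and 72740. At least 1.5-fold lower by brightest probe set were Lgr5 (-2.25), Axin2 (-0.76) and Olfm4 (-0.59, at the edge). Ascl2 (-0.56) and Smoc2 (-0.54) fell short by that measure. Their other probe sets were at -1.06 and -0.90 for Ascl2 and -0.66 for Smoc2. With all probe sets of a gene used, 5 markers were at least 1.5-fold lower. Of 7 myeloid markers 5 were measured, with a median of 0.073 that changed sign with the floor and the probe sets used, and 4 were within 1.5-fold. Csf1r had ratios of 2.53 (brightest probe set), 0.65 and 1.21, and Itgam and Cx3cr1 were below the floor. The part of these cells in the hydrolase signals was not tested.

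Since lactase is most abundant in the proximal and middle small intestine, regional markers are given beside it. The 8 proximal markers had a median of -0.67, with Ces1d (-2.79), Cyp2b10 (-2.65) and Cybrd1 (-0.80, and 0.070 by its other probe set) lower and Cubn at least 4.45-fold lower. Gata4, Slc40a1, Fabp1 and Onecut2 lay within 1.5-fold by their brightest probe sets, but the other probe set of Fabp1 was at 0.73. The proximal median was -0.30 when all probe sets of a gene were used and -0.38 with a higher floor. Of 6 distal markers 4 were measured, with a median of 0.36. Slc51a, Slc51b and Slc7a9 were between 0.35 and 0.40, and Osr2 was at least 1.62-fold lower. Fabp6 and Slc10a2, which mark the ileum, were below the floor on both arrays. The labels name the small intestine without a segment, and the part of the segment in the Lct difference was not tested.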

How the data were processed

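Total RNA of crypts was extracted with Trizol, and RNA of 5 mice was pooled for each of the 2 arrays, per the labels. The authors deposited linear signal intensity values per probe set, which came from MAS5 according to the tools listed per the submitters' processing notes; no version is named. The design text names the 430A 2.0 array, but the 45101 probe sets and the annotation used are those of the full genome array. Both columns had a mean of 500.00 after trimming 2% at each end and were used as deposited.

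Without the 64 control probe sets 45037 remained, of which 34945 had 1 gene symbol, 932 several and 9160 none; only the first kind named genes, updated through Entrez identifiers to RefSeq (GRCm38.p6) for 34754. The floor was the 50th percentile of both arrays. Each gene was represented by its brightest probe set. All hydrolase probe sets and the fixed pathway lists are named by rule, with cell type and regional markers named where they passed 1.5-fold or lay under the floor on both arrays; a few others are named as examples, chosen after their values were seen. The members, lists and sequence patterns were chosen with earlier results of these data, and for the patterns the promoter sequences, known. The alternatives were quantile and lowess scaling, floors at the 30th and 70th percentiles, a pseudocount, all probe sets, probe sets without _s_at, _x_at or _a_at, and a 2-fold limit. Scripts were tested on simulated data and used Python 3.11.15, pandas 2.3.3 and statsmodels 0.14.6.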

Additional observations from a re-analysis of the deposited data

How the results depend on the processing

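No paired analysis was possible because the labels give 1 pooled array per genotype, and leaving 1 out would end the comparison. The log2 ratio of each of the 8 hydrolases kept its sign under every scaling, floor and probe-set alternative that gave a value, with Lct between -1.42 and -1.35 and Mgam between -0.48 and -0.40. Without _s_at, _x_at and _a_at probe sets 6 members remained, and the disaccharidase median was -0.88 because Treh dropped out, while the peptidase median turned from 0.090 to -0.12 without Anpep. The count of members at least 1.5-fold higher was 0 after lowess, where Alpi was at 0.57, and 0 at 2-fold; Lct was past both limits throughout. The median of T and natural killer markers was -1.76 under the 70th percentile floor and -1.67 under the pseudocount. Medians under the pseudocount also include genes below the floor on both arrays, such as Cd2. The myeloid median of 0.073 was 0.38 under the 70th percentile floor, but -0.15 under the 30th, -0.071 under the pseudocount and -0.075 without suffixed probe sets. With the 70th percentile floor the proximal median was -0.38, and with all probe sets the proximal median was -0.30; the cause was not tested. Over all genes 547 passed 1.5-fold upward and 1005 downward. These counts were 1234 and 1889 under the 30th percentile floor, 308 and 432 under the 70th, and 162 and 267 at 2-fold. The number of arrays, 1 a group, limits the precision of every value.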

Other observations

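Relatives of the hydrolases and other enzymes of like function, most of them working inside the cell, were read from 4 lists. These lists were written after the values above were seen. Of their 29 genes 21 were measured, with log2 ratios by brightest probe set from -0.39 to 0.48. None of these 21 was 1.5-fold higher or lower by that probe set, against 4.76% higher and 8.74% lower of all measured genes. Among glycoside hydrolases, the lysosomal enzymes Glb1, a beta-galactosidase that also acts on lactose, and Gaa, acid alpha-glucosidase of the same family as Mgam, were at -0.29 (744 against 608) and 0.072 (568 against 597). The M1 aminopeptidases that act in the cytosol or endoplasmic reticulum, kin of Anpep and Enpep, lay between -0.20 (Erap1) and 0.28 (Rnpep). Dpp8 and Dpp9, cytosolic kin of Dpp4, were at -0.11 and 0.14, and Dpp3 at 0.48 (1418 against 1981). Among peptidases that finish peptide breakdown in the cytosol, Lap3 was at 0.32, Xpnpep1 at 0.37 and Pepd, which splits dipeptides ending in proline, at -0.39. Tpp2 was at -0.077 by its brightest probe set, though 1 of its others stood at 0.72. The difference of Lct, -1.36, lay outside the range of these 21 genes, but only 90 of all 11496 measured genes had a lower ratio.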
